A study of Mus musculus with 12 samples.

Results

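Malat1 and 9 other genes that give well-known RNAs of the brain were followed in the hippocampus of ageing APP/PS1 mice infused with nicotine or saline. The 10 were taken by name from the 44760 genes that the deposited count tables of both ages share. The nuclear RNAs were Malat1, Neat1, Kcnq1ot1, Meg3, Rian, Miat and Snhg11, and the other forms were the small cytoplasmic Bc1, the Cdr1 locus and Srrm4os. The tables class Cdr1 and Snhg11 as mRNA and the other 8 as noncoding. The names were chosen with their levels at the 2 ages already known from these libraries, so levels by age are given below as a description, with no test.

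All mice were male APPswe/PS1dE9 transgenics on a C57BL/6 background (N9B6), a model of amyloid deposition that carries amyloid precursor protein with the Swedish mutation and presenilin 1 without its exon 9. No group without the transgenes was included. A subcutaneous osmotic pump delivered nicotine hydrogen tartrate, labelled 48 mg/kg/h, or saline over 14 days. The dose unit, per hour, stands as the labels print it and is unsure, since a dose per day may be meant. The 4 groups were 18-month nicotine, 18-month saline, 7-month nicotine and 7-month saline, with 3 libraries each, 12 in all. Every SD below is over these 3 libraries. The labels do not say whether the libraries of a group came from separate mice, so each p-value measures only the spread between these libraries. Each age has its own deposited table, so age and table cannot be told apart. The label protocol describes a small RNA kit with selection of short inserts, while the counts cover mRNAs and long noncoding RNAs.

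Long noncoding RNAs act as RNA. Many stay in the nucleus, where some, such as Neat1, hold together bodies of proteins, and others, such as Kcnq1ot1, silence neighbouring genes on the chromosome copy they come from. Malat1 has no ordinary poly(A) tail: RNase P cuts its precursor and releases a tRNA-like small RNA, mascRNA, and the new 3′ end of Malat1 is protected by a triple helix that an A-rich tract forms with U-rich stretches. Bc1 is a rodent RNA made by RNA polymerase III that is carried into dendrites and represses translation. The strand opposite Cdr1 gives a circular RNA, Cdr1as, that binds miR-7 at many sites.

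These features can be read in the sequences, taken from GENCODE M21 transcripts on GRCm38 and shown because each belongs to one of the RNAs whose counts were far apart between the ages. Bc1 is a single exon of 168 nt at chr7:144914470-144914637 on the plus strand. Its runs of 5 or more A are in capitals, of which there are 3, the longest of 23 A, and 41.7% of its bases are A. The last 80 bases of mature Malat1, at chr19:5795982-5796061 on the minus strand, end just before mascRNA, and capitals mark their run of 12 A. The mascRNA of 58 nt at chr19:5795924-5795981 on the minus strand follows directly.
Bc1: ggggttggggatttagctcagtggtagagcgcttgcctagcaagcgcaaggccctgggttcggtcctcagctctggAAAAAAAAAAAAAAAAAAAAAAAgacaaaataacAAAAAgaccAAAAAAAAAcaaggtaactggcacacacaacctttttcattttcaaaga
Malat1 3′ end: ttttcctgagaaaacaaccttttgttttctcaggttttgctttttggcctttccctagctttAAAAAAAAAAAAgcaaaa
mascRNA: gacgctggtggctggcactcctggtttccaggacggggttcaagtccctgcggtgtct

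Cdr1 is 1 exon of 1554 nt at chrX:61184005-61185558 on the minus strand. On the plus strand, that of Cdr1as, this interval holds the heptamer GTCTTCC, the complement of the miR-7 seed, 79 times, with a median spacing of 18 bases, and on the strand of Cdr1 it holds it 0 times. Among 23479 genes with a transcript at least that long, 30.5% hold GTCTTCC or its reverse complement GGAAGAC in their first 1554 nt. The most in any other gene was 11, and 3 genes, Cdr1 included, had 10 or more. The mature miR-7a-5p sequence (RefSeq, GRCm38.p6, chr13:58392841-58392863, minus strand) is printed with its seed, bases 2 to 8, in capitals, and under it are matches 1, 40 and 79, all read on the plus strand, with the heptamer in capitals, at chrX:61184005-61184018, chrX:61184771-61184793 and chrX:61185527-61185549. A match is a description of the letters and not a measured binding site.
miR-7a-5p: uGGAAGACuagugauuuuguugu
Cdr1as match 1: tcaacGTCTTCCcc
Cdr1as match 40: tcccgaaaatccaaGTCTTCCca
Cdr1as match 79: tcccagaaacccatGTCTTCCtg

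Library totals ran from 21260068 to 23715015 counts at 18 months and from 25071195 to 29245972 counts at 7 months. Levels below are CPM, the usual depth-scaled counts, with TMM factors over all 12 libraries. In bulk tissue, fewer cells of a type and less RNA per cell cannot be told apart. All 12 hippocampal neuron markers were detected in every group. Under saline their median log2 difference, 18 minus 7 months, was -0.10, with 6 of them above 0. Among them, Zbtb20 ranged from 3.22 to 129 CPM over the 12 libraries, and Slc17a7 from 1291 to 1851 CPM. The 10 astrocyte markers summed to between 5923 and 6554 CPM at 18 months and between 4201 and 5053 CPM at 7 months. Under saline their median log2 difference was 0.12, with 5 of them above 0. Gfap had 1606 ± 197 CPM at 18 months and 706 ± 207 CPM at 7 months under saline, whereas Gjb6 had 36.0 ± 4.7 and 59.7 ± 6.9 CPM. The 10 oligodendrocyte markers had a median of -0.58 under saline, 0 of them above 0. Genes whose longest transcript exceeds 5000 nt held 36.0% to 36.9% of the counts in the 18-month libraries, and 23.2% to 24.1% in 5 of the 7-month libraries but 32.5% in 7-month saline library 2. Rn18s-rs5, a ribosomal RNA sequence, ranged from 21849 to 27362 CPM at 18 months. At 7 months it had 8313 CPM in nicotine library 3 and 18139 CPM in saline library 3, against 451 to 712 CPM in the other 4. The part of these differences in the results on the 10 genes was not tested.

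Together the 10 genes took 1.33%, 1.43% and 1.3% of all counts in the 18-month nicotine libraries, 1.19%, 1.43% and 1.55% in the 18-month saline libraries, 0.712%, 0.667% and 0.713% in the 7-month nicotine libraries, and 0.692%, 0.929% and 0.581% in the 7-month saline libraries. At 18 months the larger part came from Malat1 and Meg3, and at 7 months from Meg3 and Snhg11.

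**Figure D1:**
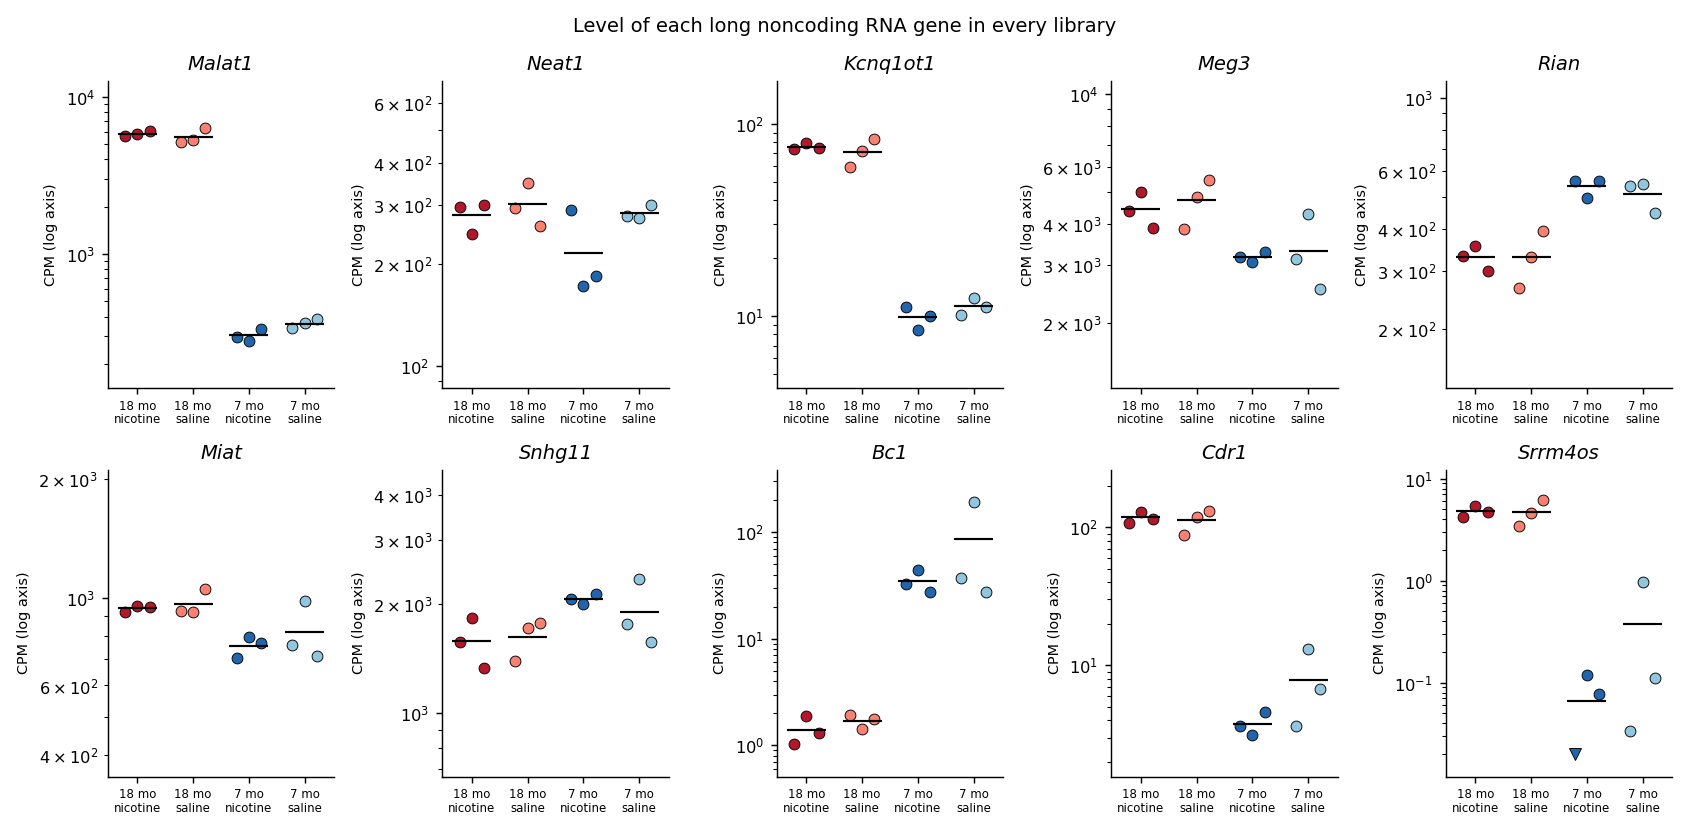
CPM of each of the 10 RNAs in every library on a log axis, with the groups ordered 18-month nicotine, 18-month saline, 7-month nicotine and 7-month saline, points for replicates 1 to 3 from left to right and bars for group means. Malat1, Kcnq1ot1, Cdr1 and Srrm4os sit higher in all 18-month libraries than in any 7-month library, Bc1 sits lower in all of them, and the 1 library with 0 Srrm4os counts is drawn as a triangle at the bottom.

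Malat1 (ENSMUSG00000092341.3, chr19:5795690-5802672, minus strand, 1 exon) is a nuclear RNA of splicing speckles. It had 5642, 5798 and 6064 CPM in the 18-month nicotine libraries and 299, 282 and 332 CPM in the 7-month nicotine libraries. Under saline it had 5157, 5315 and 6309 CPM at 18 months and 337, 364 and 384 CPM at 7 months. Every 18-month library lay above every 7-month library. The ratio of mean CPM, 18 over 7 months, was 19.2 under nicotine and 15.5 under saline, which rests on 115418 to 139187 counts per library at 18 months and 7029 to 10276 at 7 months. As a share of all counts, Malat1 made up 0.507% to 0.633% at 18 months and 0.0273% to 0.0374% at 7 months. Among the 7-month libraries of each infusion, library 3, with its high Rn18s-rs5, had the most Malat1. Without both of these libraries the fitted difference, 18 minus 7 months, was 4.32 on the log2 scale under nicotine and 3.99 under saline, against 4.26 and 3.95 with them.

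Neat1 (ENSMUSG00000092274.3, chr19:5824708-5845478, minus strand) lies in the same stretch of chromosome 19, is also made without an ordinary poly(A) tail in its long form, and is the scaffold of paraspeckles. Under saline its age values were close to each other. It had 295, 245 and 299.5 CPM in the 18-month nicotine libraries and 289.9, 172 and 185 CPM in the 7-month nicotine libraries. Under saline the values were 294, 349 and 259.8 CPM at 18 months and 277, 275 and 300.0 CPM at 7 months. The ages overlapped under both infusions, with 18-month over 7-month ratios of 1.3 under nicotine and 1.06 under saline. Under nicotine they overlapped only through 7-month library 1. Over the alternatives run, the log2 difference ran from 0.24 to 0.65 under nicotine.

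Miat (ENSMUSG00000097767.8, chr5:112213228-112229395, minus strand), also called Gomafu, is held in the nuclei of neurons and has been linked to splicing. It had 920.0, 954 and 947 CPM in the 18-month nicotine libraries and 706, 797 and 766 CPM in the 7-month nicotine libraries. With saline it had 924, 918 and 1053 CPM at 18 months and 759.5, 983 and 713 CPM at 7 months. The ages did not overlap under nicotine and did overlap under saline, where 7-month saline library 2 was the high one, and the fitted 18 minus 7 month differences were 0.31 and 0.24 on the log2 scale.

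Kcnq1ot1 (ENSMUSG00000101609.2, chr7:143203458-143296549, minus strand, 1 exon) runs antisense inside Kcnq1 and silences imprinted genes around it. It had 73.9, 79.1 and 74.4 CPM in the 18-month nicotine libraries and 11.1, 8.43 and 10 CPM in the 7-month nicotine libraries. The saline libraries had 59.6, 72.0 and 83.4 CPM at 18 months and 10.1, 12.4 and 11.1 CPM at 7 months. No library of one age overlapped the other age, and the 18-month over 7-month ratio was 7.7 under nicotine and 6.39 under saline. Kcnq1 itself, the potassium channel gene on the other strand, averaged 0.601 and 0.83 CPM at 18 and 7 months under nicotine, and 0.752 and 0.453 CPM under saline, from 37 to 65 counts per group. Strand setting is not given in the sources used here, so reads of antisense partners cannot be told apart.

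Meg3 and Rian are maternally expressed neighbours in the imprinted Dlk1-Dio3 region, and Rian hosts small nucleolar RNAs and microRNAs. Meg3 (ENSMUSG00000021268.17, chr12:109541001-109571726, plus strand) had 4392, 5008 and 3905 CPM in the 18-month nicotine libraries and 3174, 3073 and 3285 CPM in the 7-month nicotine libraries. Under saline it had 3876, 4836 and 5476 CPM at 18 months and 3127, 4306 and 2526 CPM at 7 months. The 18-month nicotine libraries all exceeded the 7-month nicotine libraries, while the saline ages overlapped through 7-month saline library 2. Rian (ENSMUSG00000097451.10, chr12:109603940-109661716, plus strand) stood the other way round, with 331, 356 and 300.1 CPM in the 18-month nicotine libraries and 559, 498 and 562 CPM in the 7-month nicotine libraries. For saline the Rian values were 265, 330.0 and 394 CPM at 18 months and 540.4, 548 and 448 CPM at 7 months. Neither infusion showed an overlap of ages for Rian, and its log2 differences were -0.71 under nicotine and -0.63 under saline, beside 0.48 and 0.51 for Meg3.

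Genes counted inside these loci did not all go with their host. Mir770, inside Meg3, averaged 7.94 ± 2.66 CPM in 18-month nicotine and 2.23 ± 0.822 CPM in 7-month nicotine libraries, and 10.2 ± 1.45 CPM in 18-month saline and 3.46 ± 3.28 CPM in 7-month saline libraries. Within Rian, the small nucleolar RNA gene AF357359 averaged 8.76 ± 1.39 CPM at 18 months and 15.0 ± 1.15 CPM at 7 months under nicotine, and 8.42 ± 1.69 and 16.6 ± 5.73 CPM under saline, the same order as Rian. Mir1188 had the opposite order, with 117 counts in all 18-month nicotine libraries and 5 in all 7-month nicotine libraries, and 118 counts in the 18-month saline and 27 in the 7-month saline libraries. Mir341 had 52 and 0 counts at 18 and 7 months under nicotine and 57 and 13 under saline. Of the 7-month saline counts, 184 of the 273 of Mir770, 25 of those of Mir1188 and 12 of those of Mir341 were in library 2. A count in a microRNA gene can come from its precursor or from the host RNA, and these counts do not separate them.

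Snhg11 (ENSMUSG00000044349.15, chr2:158375638-158386145, plus strand) is a host gene of small nucleolar RNA expressed in neurons. It had 1573, 1828 and 1336 CPM in the 18-month nicotine libraries and 2066, 2006 and 2135 CPM in the 7-month nicotine libraries. Its saline values were 1393, 1714 and 1773 CPM at 18 months and 1768, 2351 and 1572 CPM at 7 months. The nicotine libraries of the 2 ages did not overlap and the saline libraries did, with log2 differences of -0.39 and -0.22.

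Bc1 (ENSMUSG00000115783.1) was the 1 member that was more than 2-fold lower at 18 months. It had 1.02, 1.87 and 1.32 CPM in the 18-month nicotine libraries and 32.5, 43.8 and 27.7 CPM in the 7-month nicotine libraries. Under saline it had 1.92, 1.44 and 1.77 CPM at 18 months and 37.0, 192 and 27.4 CPM at 7 months. All 18-month libraries lay below all 7-month libraries, and 7-month saline library 2 was far above the rest. From 24 to 43 counts per library stood behind the 18-month values. Mean Bc1 at 18 months was lower than at 7 months by a factor of 24.7 under nicotine and 50.1 under saline. Leaving out 7-month saline library 2 gave a log2 difference of -4.20 under saline, against -5.64 with it.

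Cdr1 (ENSMUSG00000090546.2) counts may hold the linear RNA and the circular RNA of the opposite strand. The values were 108, 129.7 and 115 CPM in the 18-month nicotine libraries and 3.63, 3.13 and 4.61 CPM in the 7-month nicotine libraries. With saline they were 87.3, 118 and 130.3 CPM at 18 months and 3.63, 13.2 and 6.76 CPM at 7 months. The ages did not overlap, and the 18-month over 7-month ratio of mean CPM was 31.0 under nicotine and 14.2 under saline. Without 7-month saline library 2 the saline log2 difference was 4.46, against 3.84 with it. C230004F18Rik, a long noncoding RNA gene on the opposite strand, averaged 7.07 ± 1.1 CPM in 18-month nicotine and 4.69 ± 0.318 CPM in 7-month nicotine libraries. Under saline it averaged 6.21 ± 0.716 CPM at 18 months and 4.67 ± 0.348 CPM at 7 months.

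Srrm4os (ENSMUSG00000086219.7, chr5:116438720-116465487, plus strand, 4 exons) lies antisense to Srrm4, a splicing factor for neuronal microexons. It had 100, 116 and 100 counts in the 18-month nicotine libraries and 0, 3 and 2 counts in the 7-month nicotine libraries. The saline libraries had 77, 102 and 135 counts at 18 months and 1, 25 and 3 counts at 7 months. The 25 counts again belong to 7-month saline library 2, and the ages did not overlap. The depth-scaled ratio of summed counts, 18 over 7 months, was 77.0 under nicotine (exact 95% interval 32.7 to 239) and 13.4 under saline (9.17 to 20.4), intervals that cover counting error only. Srrm4 averaged 57.7 ± 2.78 CPM at 18 months and 31.6 ± 3.71 CPM at 7 months under nicotine, and 53.3 ± 5.59 and 39.6 ± 12.4 CPM under saline. Without 7-month saline library 2 the fitted log2 difference of Srrm4os under saline was 5.98, against 3.69 with it. Under nicotine it was 6.13, and 5.53 without 7-month library 1 or 6.84 without 7-month library 2.

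Counting members that were at least 2-fold apart with no overlap of libraries, 4 of 10 were higher at 18 months (Malat1, Kcnq1ot1, Cdr1 and Srrm4os) and 1 was lower (Bc1), under each infusion. Over all 19171 tested genes, 14.4% were higher and 7.09% lower by the same measure under nicotine, and 10.3% higher and 3.39% lower under saline. The members were chosen on these levels, so nothing is read from their share. The median member difference was 0.43 on the log2 scale under nicotine and 0.37 under saline, with -0.03 for all genes under both. It was 0.38 and 0.24 over the 7 nuclear RNAs, of which 2 were higher by that measure, and 4.95 and 3.69 over the other forms, of which 2 were higher and 1 lower. Among all tested genes ranked by the saline difference, Malat1 was number 225 from the top, Cdr1 245, Srrm4os 261 and Kcnq1ot1 527, while Bc1 was number 2 from the bottom. Under nicotine the ranks were 297 for Malat1, 173 for Cdr1, 84 for Srrm4os and 735 for Kcnq1ot1, and Bc1 was number 13 from the bottom.

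**Figure D2:**
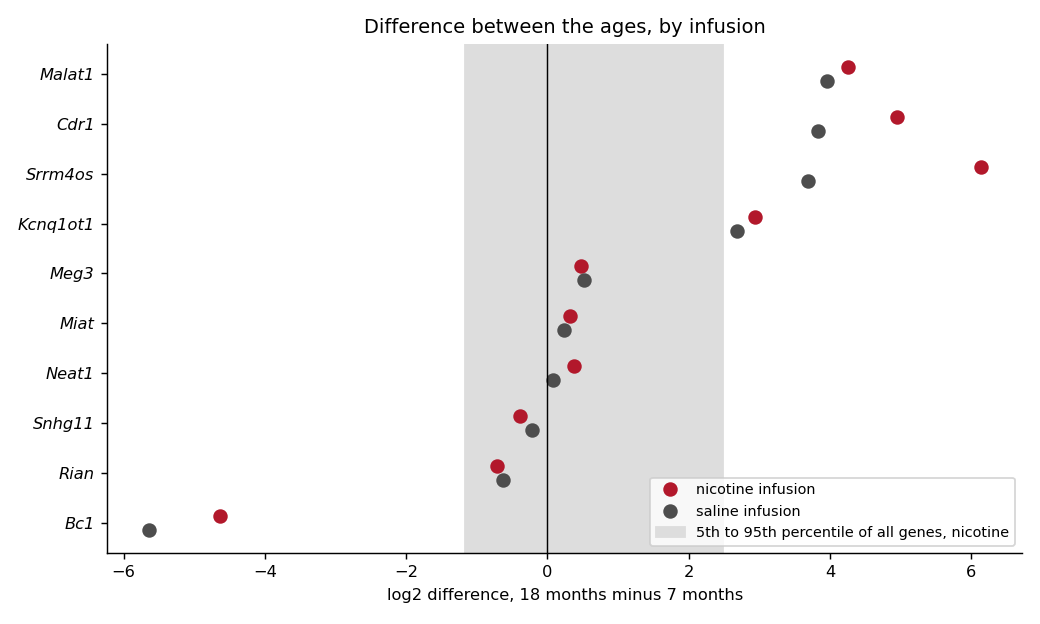
Fitted log2 difference, 18 minus 7 months, of each RNA under nicotine and under saline, with a band for the 5th to 95th percentile of all genes under nicotine, -1.17 to 2.49. Malat1, Kcnq1ot1, Cdr1 and Srrm4os lie above the band, Bc1 lies below it, and the other 5 lie inside it under both infusions.

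Per kilobase of longest transcript the order of the RNAs differed between the ages. Malat1 was the highest of the 10 at 18 months, with 836 CPM per kb under nicotine and 801 under saline, number 12 in either group among 30971 genes with a known length. At 7 months it had 43.6 CPM per kb under nicotine and 51.8 under saline, numbers 1586 and 1188. Meg3 and Snhg11 were next at 18 months, with 305 and 269 CPM per kb under nicotine and 325 and 277 under saline. At 7 months under nicotine the order was Snhg11 at 353, Meg3 at 218 and Bc1 at 206 CPM per kb, and under saline Bc1 led at 509 through library 2, before Snhg11 at 323 and Meg3 at 228. Bc1 was number 263 of all genes in 7-month nicotine and number 44 in 7-month saline, against numbers 6395 and 5575 in 18-month nicotine and saline. Miat followed with 82.6 to 105 CPM per kb in the 4 groups. Neat1 had 10.4 to 14.5 CPM per kb. Kcnq1ot1, spread over 93092 nt, was lowest at 18 months with 0.814 under nicotine and 0.77 under saline.

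Some neighbours in this order had overlapping ranges over the libraries of a group. Per kilobase, the ranges of Meg3 and Snhg11 overlapped at 18 months under both infusions, although Meg3 was the higher in each single library. The ranges of Meg3 and Bc1 overlapped in 7-month nicotine libraries. In 7-month saline libraries those of Bc1, Snhg11 and Meg3 all overlapped, with Snhg11 above Meg3 in each library. Malat1 stood above all other members in every 18-month library and lay under Miat and Rian in every 7-month library. Among all genes, Cdr1 was number 582 in 18-month nicotine and 10543 in 7-month nicotine, and number 613 in 18-month saline and 8453 in 7-month saline.

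**Figure D3:**
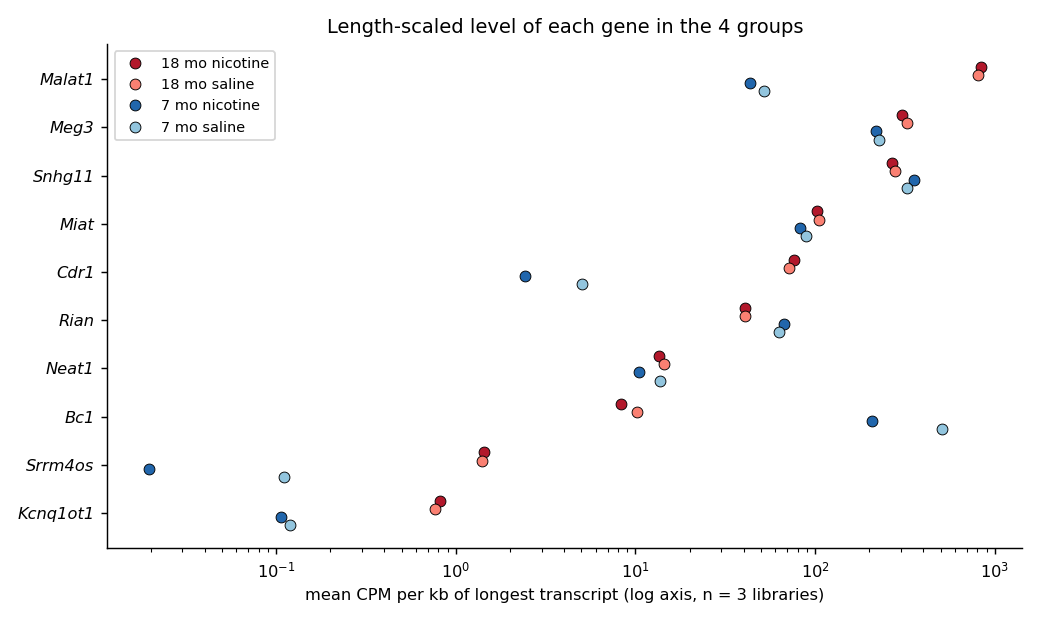
Mean CPM per kilobase of the longest transcript for each RNA in the 4 groups, on a log axis, with 18-month groups before 7-month groups. Malat1 leads at 18 months at 836 and 801 CPM per kb, and Snhg11, Meg3, Bc1, Miat and Rian lie above it at 7 months.

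The genes whose levels went most like those of Malat1 over the 12 libraries were found by the root mean square of the log2 CPM difference after centring each gene. The search covered 12748 genes with a mean log2 CPM of at least 1 and no predicted name (Gm, LOC or ending in Rik). They were Muc6, a mucin gene, at 0.414, Zbtb20 at 0.428, the pseudogene Oaz1-ps at 0.464, Cdr1 at 0.468 and Grin2a at 0.536. Zbtb20, a transcription factor of hippocampal pyramidal neurons, averaged 118 and 3.68 CPM at 18 and 7 months under nicotine, and 113 and 4.33 CPM under saline. Grin2a, an NMDA receptor subunit, averaged 221 and 12.4 CPM at 18 and 7 months under nicotine, and 205 and 26.5 CPM under saline. Of the other members, Kcnq1ot1 was number 9 at 0.661, whereas Bc1 was number 12747 at 4.507. Srrm4os lay under that mean level and so outside the 12748 genes, and its distance of 0.827 would fall at number 21. The distance is a description over libraries that share age and table.

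Nicotine was compared with saline among the 6 libraries of each age by edgeR's quasi-likelihood test with Benjamini-Hochberg adjustment over all genes. None of the 10 members passed at 18 months, where 8 of 18196 genes (0.044%) passed, and none of 9 tested members passed at 7 months, where 2 of 17596 (0.0114%) passed. Srrm4os was too low to be tested at 7 months. Nicotine and saline libraries did not overlap for 0 members at 18 months, where 6.62% of all genes were higher and 5.15% lower without overlap, 11.8% in all. At 7 months they did not overlap for 1 member, Malat1, where 9.04% of all genes were higher and 8.37% lower, 17.4% in all. Unadjusted p-values under 0.05 were seen for 0 members at 18 months and 2 at 7 months, among 1225 and 1144 genes.

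At 18 months Malat1 averaged 5835 ± 213 CPM with nicotine and 5594 ± 624 CPM with saline (log2 0.05, SE 0.09, edgeR adjusted p = 0.961). The log2 differences of the 10 members lay between -0.30 for Bc1, with an SE of 0.26, and 0.07 for Kcnq1ot1, with an SE of 0.11. Bc1 averaged 1.40 ± 0.43 CPM with nicotine and 1.71 ± 0.246 CPM with saline. The differences of Meg3 and Rian were smaller than their SDs, with Meg3 at 4435 ± 553 and 4729 ± 806 CPM and Rian at 329 ± 28.2 and 329.8 ± 64.2 CPM in nicotine and saline libraries.

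At 7 months Malat1 averaged 305 ± 25.5 CPM with nicotine and 362 ± 23.8 CPM with saline. Its 3 nicotine libraries all lay under its 3 saline libraries. The log2 difference was -0.26 (SE 0.11), with an unadjusted p of 0.0447 and an adjusted p of 0.656 in edgeR's quasi-likelihood test, so it did not pass. Cdr1 averaged 3.79 ± 0.754 CPM with nicotine and 7.87 ± 4.88 CPM with saline (log2 -1.07, SE 0.45, edgeR unadjusted p = 0.0442, adjusted p = 0.656), and its libraries overlapped. Without saline library 2 its log2 difference was -0.45. Neat1 averaged 216 ± 64.7 CPM with nicotine and 284 ± 14.0 CPM with saline, where 2 nicotine libraries were low and the other, library 1, lay among the saline values. Nicotine library 1 also had the most choroid plexus and pituitary transcripts, whose part was not tested. Bc1 averaged 34.7 ± 8.27 CPM with nicotine and 85.6 ± 92.6 CPM with saline. Its log2 difference of -1.33 (SE 0.70) became 0.11 without saline library 2. The remaining members had differences between -0.20 for Kcnq1ot1 and 0.11 for Snhg11.

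Averaged over the 2 ages, none of the 10 members passed among 19171 genes, of which 7 (0.0365%) did, and 0 members and 1316 genes had an unadjusted p under 0.05. The smallest member p was that of Cdr1, at a log2 difference of -0.48 (SE 0.24, edgeR unadjusted p = 0.0643, adjusted p = 0.722). The nicotine effect at 18 months minus that at 7 months was tested as an interaction, in which 1 gene passed (0.00522%) and no member. It was 1.12 for Cdr1 (SE 0.48, edgeR unadjusted p = 0.0365, adjusted p = 0.623), 0.31 for Malat1 (SE 0.15, adjusted p = 0.623 in edgeR) and 2.45 for Srrm4os (SE 1.22, adjusted p = 0.623 in edgeR). Srrm4os was too low for the test within 7 months and entered both fits of 12 libraries through its 18-month counts. Its 7-month side rests on 5 counts with nicotine and 29 with saline, 25 of them in saline library 2, so its values here are only a description. Cdr1 was the 1 member, among 1504 genes, with an unadjusted p under 0.05 there.

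Choroid plexus markers, which can enter a hippocampal dissection, differed widely between libraries of the same group. The summed level of all 12 ranged from 123 to 2046 CPM in 18-month nicotine and from 109 to 256 CPM in 18-month saline libraries, and from 144 to 7345 CPM in 7-month nicotine and from 284 to 2069 CPM in 7-month saline libraries. None of the 12 was at 0 in all libraries of a group. With nicotine, 8 of 8 tested were above saline at 18 months (median log2 1.77) and 12 of 12 at 7 months (1.2). None of them passed. For 18 over 7 months, 0 of 12 were above 0 under either infusion, with medians of -1.21 under nicotine and -2.24 under saline. At 2-fold or more without overlap, 0 were lower under nicotine and 6 under saline, against 7.09% and 3.39% of all genes. The 10 pituitary markers summed to 177 CPM in 7-month nicotine library 1 and to at most 2.88 CPM in the other groups. That library also had the most of the choroid plexus marker Ttr, 5876 CPM against 39.2 and 405 CPM in nicotine libraries 2 and 3. The part of both marker lists in the nicotine and age differences was not tested.

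Further genes of these pathways were listed by function, with earlier results of these data known. Of 59 other long noncoding RNAs, 37 were in the tables and 34 were tested over the 12 libraries, and none passed for nicotine at either age. By age, 9 were higher and 8 lower under nicotine, and 5 higher and 6 lower under saline, at 2-fold or more without overlap, where 14.4% of all genes were higher and 7.09% lower under nicotine and 10.3% and 3.39% under saline. Rpph1, the RNA of RNase P that cuts the Malat1 precursor, averaged 9.03 ± 1.59 CPM at 18 months and 1.67 ± 2.65 CPM at 7 months under nicotine, and 10.5 ± 2.94 and 3.07 ± 5.04 CPM under saline. At 7 months nearly all of its counts were in the libraries numbered 3, the ones with high Rn18s-rs5, at 4.73 CPM with nicotine and 8.89 CPM with saline, against 0.0692 to 0.237 CPM in the other 4. Snhg6, a host of small nucleolar RNA, averaged 3.78 ± 0.311 and 10.1 ± 0.974 CPM at 18 and 7 months under nicotine, and 3.66 ± 0.444 and 9.06 ± 2.09 CPM under saline. Of 32 tested proteins of paraspeckles and speckles, the bodies of Neat1 and Malat1, none passed for nicotine. By age 2 were at least 2-fold higher without overlap under nicotine, where 14.4% of all genes were, and 0 under saline, where 10.3% were. Under saline 12 of the 32 had a log2 difference above 0, and the median was -0.14. The speckle proteins Son and Srrm2 had saline log2 differences of 0.81 and 0.82, with Srrm2 at 971 ± 69.9 CPM at 18 months and 549.8 ± 203 CPM at 7 months. In 7-month saline library 2, Srrm2 had 785 CPM, against 436 and 428 CPM in libraries 1 and 3. Under nicotine Srrm2 averaged 921 ± 11.1 and 445 ± 51.4 CPM at 18 and 7 months, and Son 480.5 ± 11.8 and 215 ± 9.65 CPM. The splicing factors Srsf7 and U2af1 had saline log2 differences of -0.72 and -0.67, with Srsf7 at 74.6 ± 2.73 CPM at 18 months and 122 ± 3.79 CPM at 7 months.

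Of the 7 tested genes of the Dlk1-Dio3 region, none was 2-fold apart by age without overlap. Over all genes, 14.4% were higher and 7.09% lower by that measure under nicotine, and 10.3% higher and 3.39% lower under saline. With so few genes per region, nothing is read from the counts by age in this paragraph. Their median log2 difference was -0.39 under nicotine and 0.50 under saline. Dlk1, which encodes a Notch-related protein, averaged 6.13 ± 2.56 and 6.19 ± 2.0 CPM at 18 and 7 months under nicotine and 9.99 ± 4.76 and 5.14 ± 4.79 CPM under saline. Rtl1, a retrotransposon-derived gene, averaged 9.41 ± 1.81 and 6.89 ± 1.09 CPM at 18 and 7 months under nicotine and 10.3 ± 1.56 and 5.61 ± 1.47 CPM under saline. Mirg, a microRNA host in that region, averaged 16.0 ± 2.83 and 31.1 ± 3.66 CPM at 18 and 7 months under nicotine and 16.3 ± 3.3 and 27.0 ± 3.56 CPM under saline. In the imprinted region around Kcnq1 and the neighbouring Igf2, 10 genes were tested, Kcnq1ot1 included. It alone was higher by that measure, under both infusions, and 0 under nicotine and 1 under saline were lower. The growth factor gene Igf2 averaged 43.9 ± 23.8 CPM at 18 months and 73.1 ± 73.4 CPM at 7 months under nicotine, and 22.2 ± 4.04 and 49.2 ± 7.91 CPM under saline. Cdkn1c, a cell cycle inhibitor, averaged 3.78 ± 2.32 and 9.51 ± 7.11 CPM at 18 and 7 months under nicotine, and 2.76 ± 0.267 and 5.51 ± 2.05 CPM under saline. No gene of either region passed for nicotine. Of 10 tested genes beside or opposite a member, 1 was lower by age under each infusion, the crystallin gene Crybb1, with 2.08 ± 0.467 and 11.6 ± 1.85 CPM at 18 and 7 months under nicotine and 1.86 ± 0.516 and 4.84 ± 1.61 CPM under saline. Among the 195 listed genes outside the 10 members, cell type markers included, 1 passed for nicotine, the connexin gene Gjb6 of astrocytes, in the average over ages (log2 0.54, edgeR adjusted p = 0.0496).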

How the data were processed

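The authors deposited raw counts of fragments per gene in 1 table per age (44788 genes at 7 months and 44786 at 18 months, 44760 shared). Reads were aligned with TopHat to GRCm38, per the submitters' processing notes; the counting tool, gene annotation and strand setting are not given in the sources used here. Totals were 21260068 to 29245972 counts per library, and intervals cover counting error only. Nicotine was tested within age (6 libraries), averaged over ages and as a difference between ages (4 group means, 12 libraries) by the quasi-likelihood test of edgeR (version 4.0.16, R 4.3.3) after TMM scaling and filterByExpr, with p-values adjusted by Benjamini-Hochberg over all genes and a threshold of 0.05. An exact permutation of 3 against 3 libraries reaches no p under 0.1 and was not run. Fits were tested on simulated data. Log2 values of single libraries used a prior count of 2. The 10 members and the gene lists were chosen with earlier results of these data known; genes named from a list were those that passed for nicotine and up to 4 with the largest saline age difference. Over the genes that passed the filter, deviations of same-number libraries were nearly uncorrelated (correlations -0.135 to 0.092), so numbers were not used as pairs. Single genes did differ, as both 7-month libraries numbered 3 had high Rn18s-rs5. Sequences and lengths came from GENCODE M21 and RefSeq. DESeq2 1.42.0, other scalings and filters, the replicate block and left-out libraries were alternatives. Figures used Python 3.11.15 and matplotlib 3.10.9.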

Additional observations from a re-analysis of the deposited data

How the results depend on the processing

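No member passed for nicotine under any alternative run (edgeR or DESeq2), with smallest adjusted p-values per comparison from 0.24 to 1. Counts over all genes moved, and the cause was not tested. For nicotine at 7 months (2 genes), at 18 months (8), averaged (7) and as a difference between ages (1), no filter on low counts gave 6, 35 and 15 for the first 3, and DESeq2 gave 81, 57, 80 and 37. The replicate block gave 1, 3 and 0 for 7 months, the average and the difference, and changed no call of a member. With all 12 libraries in 1 fit, 9 passed at 7 months and 0 at 18 months. Without both 7-month libraries numbered 1, 0 passed at 7 months and 2 in the difference, and without both numbered 3, 5 and 3. The column names of both libraries numbered 1 begin differently from those of the other 7-month libraries, and the meaning of this is not known here. Leaving out 1 library gave 0 to 2 at 7 months, 5 to 21 at 18 months, 2 to 21 averaged and 0 to 3 in the difference. The 21 came without 18-month saline library 3 at 18 months and without 7-month saline library 2 in the average, and the 0 at 7 months without nicotine library 1, saline library 2 or saline library 3. The median age difference ran from 0.26 to 0.60 (0.60 without 7-month saline library 2) under saline and from 0.40 to 0.56 under nicotine when 1 library was left out. Under nicotine it was 0.57 without both 7-month libraries numbered 1 and 0.49 with totals that leave out the members and structural RNAs.

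No nicotine difference of a member had passed, and the directions of several turned under the alternatives. At 7 months the log2 nicotine difference ran, with 1 library left out, from -0.25 to 0.17 for Meg3, -0.03 to 0.13 for Rian, -0.23 to 0.04 for Miat, -0.02 to 0.31 for Snhg11 and -1.76 to 0.11 for Bc1, and without both libraries numbered 3 it was -0.07 for Rian and -0.05 for Snhg11. At 18 months it ran from -0.01 to 0.14 for Malat1, -0.22 to 0.01 for Neat1, -0.05 to 0.19 for Kcnq1ot1, -0.23 to 0.01 for Meg3, -0.15 to 0.13 for Rian, -0.08 to 0.02 for Miat, -0.17 to 0.05 for Snhg11, -0.09 to 0.19 for Cdr1 and -0.18 to 0.24 for Srrm4os, which was -0.0035 with library totals alone. The age difference of Neat1 under saline ran from -0.04 to 0.19. The age differences of Malat1, Kcnq1ot1, Cdr1, Srrm4os and Bc1 kept their direction under the alternatives run. Depth limits Srrm4os at 7 months and Bc1 at 18 months.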
